A study of Mus musculus with 6 samples.

Results

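Oxidative phosphorylation is carried out by 5 protein assemblies of the inner mitochondrial membrane, and the genes described here are those for their nuclear-encoded parts, taken by gene symbol. Complex I (symbols starting with Nduf), complex II (Sdha to Sdhd), complex III (Uqcr and Cyc1), complex IV (Cox4 to Cox8) and complex V (Atp5) were followed in mouse bone after an injection of growth hormone (GH). The symbols named 67 genes on 74 array rows, and 66 of them, on 73 rows, had a value on at least 2 arrays at each time. They are 66 of the 8803 named genes tested and of 16678 features tested in all, the other features being array rows without a single gene symbol. Complex I accounted for 31 of the 66 genes, complex II for 4, complex III for 5, complex IV for 12 and complex V for 14. Of the 66, 60 encode subunits, and 6 (Ndufaf1, Ndufaf3, Ndufaf4, Ndufaf5, Ndufaf6 and Cox7a2l) share the symbols but encode factors that help to build complexes or to join them. The gene left out, Ndufaf2, had values of 0.29, −1.40 and −2.47 at 6 h and only 1 value, −0.25, at 24 h.

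All animals were 4-week-old C57BL/6J mice homozygous for the little (lit) mutation of Ghrhr, the receptor for growth hormone-releasing hormone, so treated and control animals alike lacked normal GH secretion. Treated mice received 1 subcutaneous injection of GH at 4 mg/kg body weight and control mice received PBS (phosphate-buffered saline), and bone was taken 6 or 24 h later. RNA from 2 animals was pooled per sample, and the 6 arrays carried 1 GH pool in Cy5 against 1 PBS pool in Cy3 each, with replicates 1 to 3 at 6 h and replicates 4 to 6 at 24 h. The labels name neither the bone taken nor the sex of the animals, and no wild-type group was analysed here.

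The measurement is the log2 ratio of GH over PBS, in which 0 means equal signal and 1 a doubling in the GH pool. The dyes in the labels make this direction likely, although no source used here states it for the values. The dyes were never exchanged, so a dye effect shared by all arrays cannot be told apart from an effect of GH, except in the difference between times, where it cancels. Only ratios were available, so the level of a gene, its signal over background and the presence of bone-defining transcripts could not be read. In whole tissue, fewer cells of a type and less RNA per cell cannot be told apart. The number of arrays limits the precision.

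As background, complexes I and II pass electrons from NADH and succinate to ubiquinone, complex III passes them to cytochrome c and complex IV to oxygen. Complexes I, III and IV pump protons as they do so, and complex V, the ATP synthase, uses the returning protons to make ATP. Bone holds several cell types with high demands on respiration, among them osteoclasts, and adjoining skeletal muscle is especially rich in these transcripts.

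The ratios of the 66 genes were small at both times. A gene was counted as higher or lower with GH where its mean log2 ratio differed from 0 at an adjusted p under 0.05 (limma, Benjamini-Hochberg over all 16678 features). At 6 h, 1 of the 66 genes (1.52%) rose and 0 fell, beside 3.62% of all features that passed, 2.91% higher and 0.702% lower. At 24 h, again 1 gene (1.52%) rose and 0 fell, beside 20.6% of all features, 12% higher and 8.62% lower. Averaged over both times, 8 genes rose and 2 fell (15.2% of 66), beside 35.5% of all features, 19.3% higher and 16.2% lower, and beside 31.4% of the named genes. At an unadjusted p under 0.05 the same limma fit held 10 of the 66 genes at 6 h, 7 at 24 h and 18 over both times. Of all 16678 features it held 4443 at 6 h, 6756 at 24 h and 8091 over both times. Counted without the 6 assembly factors, 0 of 60 subunit genes passed at 6 h (8 at an unadjusted p under 0.05), 0 at 24 h (5 unadjusted) and 7 over both times, 6 higher and 1 lower.

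**Figure D1:**
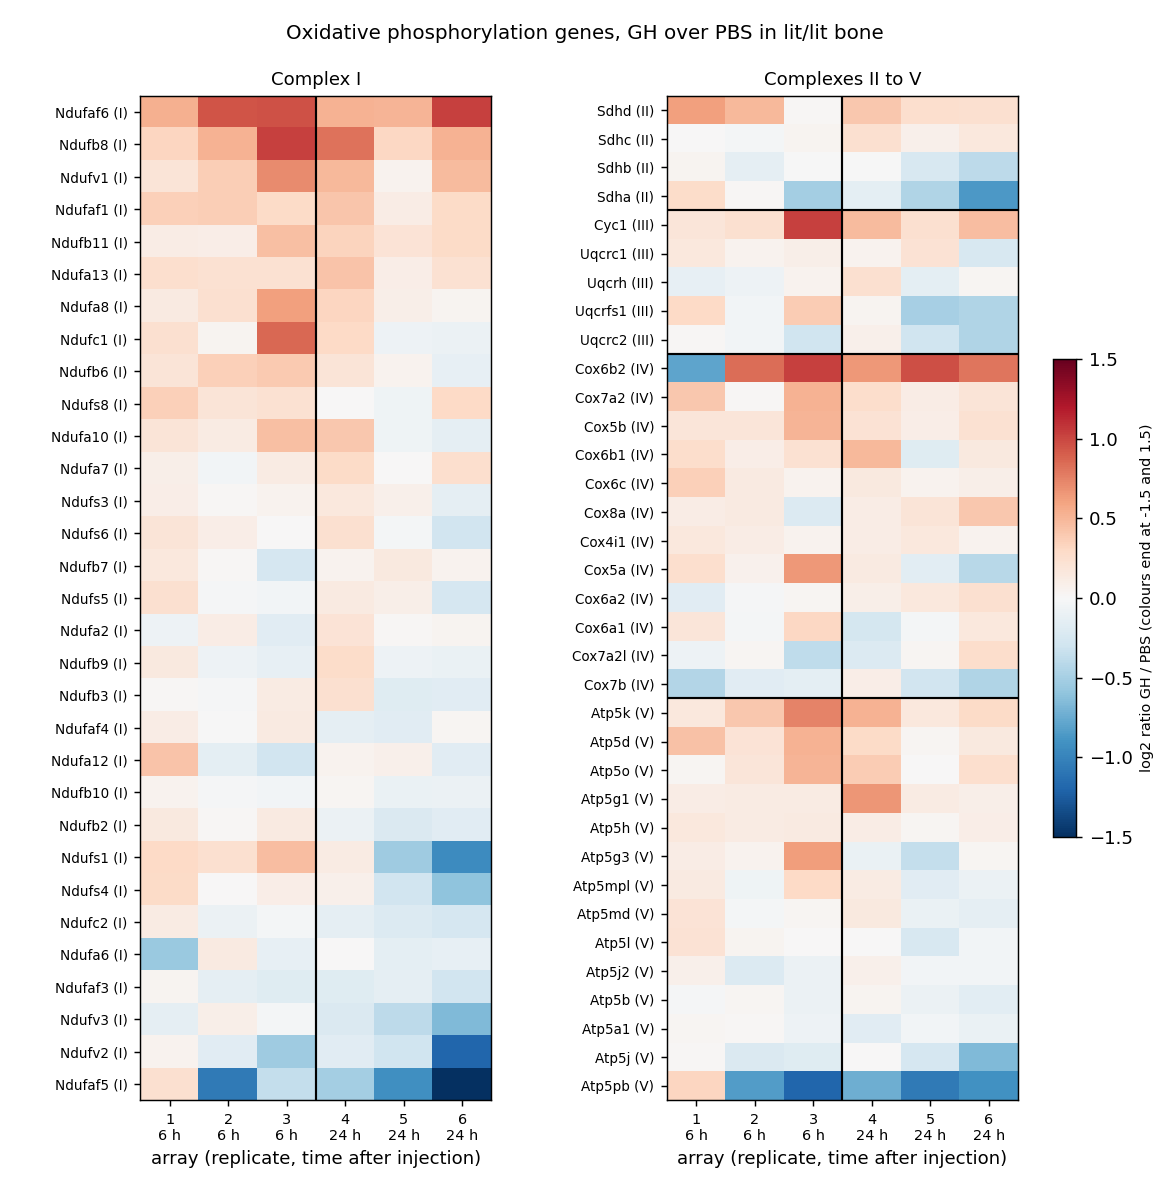
Log2 ratio of GH over PBS for each of the 66 genes (rows, ordered within a complex by the mean over both times) on each of the 6 arrays (columns), with complex I on the left and complexes II to V on the right; red is higher with GH, blue lower, and colours end at −1.5 and 1.5. Most cells are pale, and ratios beyond 1 in size on at least 1 array are found in Ndufaf6, Ndufb8, Ndufv2, Cyc1, Cox6b2, Atp5pb and Ndufaf5, whose replicate 6 value of −2.06 lies beyond the colour scale.

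The size of the mean log2 ratio was at most 0.5 in 63 of the 66 genes at 6 h (95.5%) and in 60 at 24 h (90.9%), beside 73.3% and 62.7% of all features and 79.7% and 68.6% of named genes. The residual SD of the fit, the spread between arrays of 1 time, had a median of 0.18 over the 66 genes, 0.28 over named genes and 0.31 over all features. The lower share of genes past the threshold thus went with smaller ratios and with a smaller spread between arrays. The median ratio of the 66 genes was 0.098 at 6 h and 0.031 at 24 h, and that of all features −0.016 and 0.0033. Genes above 0 numbered 56, 41 and 41 of 66 on replicates 1, 2 and 3 and 48, 29 and 32 on replicates 4, 5 and 6. Of the 66 genes, 17 were above 0 on all 6 arrays and 0 were below 0 on all 6. Of the 15131 features with values on all 6 arrays, 2680 (17.7%) were above 0 on all 6 and 2388 (15.8%) below.

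Across arrays, the medians of the complexes differed little, and complex IV had the highest median in 5 of 6. The complex I median was 0.16, 0.043 and 0.12 on the 6 h arrays and 0.16, −0.059 and −0.12 on the 24 h arrays. The complex II median was 0.16, −0.0074 and 0.0054 at 6 h and 0.12, −0.087 and −0.12 at 24 h. The complex III median was 0.16, −0.044 and 0.084 at 6 h and 0.070, −0.15 and −0.23 at 24 h. In these 3 complexes replicate 4 was above 0 and replicates 5 and 6 below 0, so the 24 h arrays had no common sign.

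The complex IV median was 0.17, 0.081 and 0.14 at 6 h and 0.12, 0.077 and 0.18 at 24 h, above 0 on all 6 arrays. The complex V median was 0.12, 0.038 and 0.073 at 6 h and 0.091, −0.064 and −0.044 at 24 h. Complex IV lay above complexes II, III and V on all 6 arrays and above complex I on 5 of 6, replicate 4 being the exception. The gap to complex V had a mean of 0.091 ± 0.075 (SD, n = 6 arrays), that of complex I minus complex IV −0.075 ± 0.12, that of complex II minus complex IV −0.12 ± 0.11 and that of complex III minus complex IV −0.15 ± 0.15. In the last 3 the SD was about as large as the mean or larger, and no test was made, because genes of a complex are not replicates. All features had array medians between −0.015 and 0.043.

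**Figure D2:**
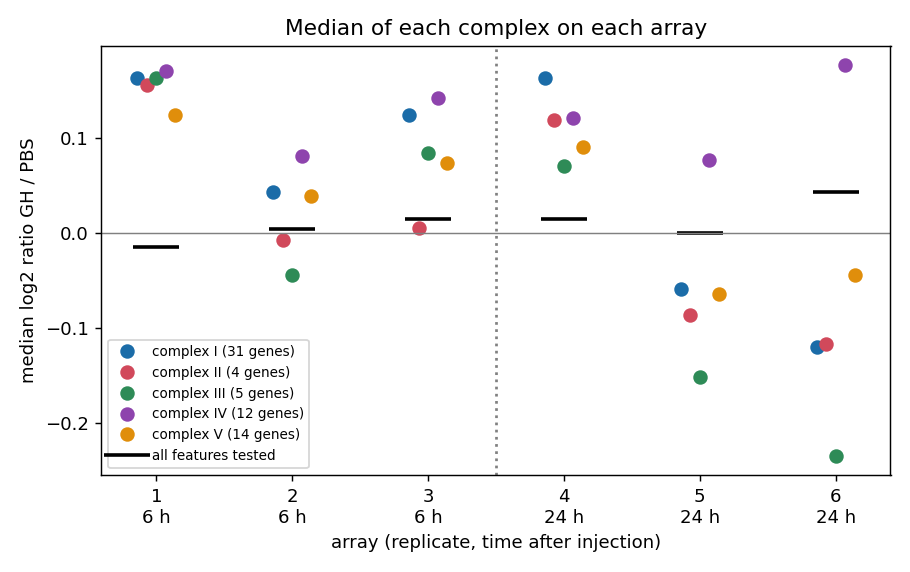
Median log2 ratio of GH over PBS over the genes of each complex (coloured circles) on each array (replicate and time on the x axis), with the median of all features tested as black bars. Complex IV (purple) stays above 0 on all 6 arrays, while complexes I, II, III and V are below 0 on replicates 5 and 6.

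Complex I, the largest assembly, gave 5 of the 10 genes past the threshold over both times: Ndufaf6, Ndufb8, Ndufaf1 and Ndufv1 rose and Ndufaf5 fell, out of 31. Ndufaf6, a factor needed to assemble complex I, had log2 ratios of 0.54, 0.94 and 0.96 at 6 h and 0.52, 0.51 and 1.03 at 24 h. It was above 0.5 on every array, and the values of the 2 times overlapped. Its mean was 0.81 ± 0.16 (SE, n = 3) at 6 h, with a limma adjusted p of 0.0498. At 24 h its mean was 0.68 ± 0.16 (SE, n = 3), with a limma adjusted p of 0.032. Over both times it was 0.75 ± 0.11 (SE, n = 6), 1.68-fold higher with GH (limma adjusted p = 0.00645), and it was the gene that passed at each single time.

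Ndufb8 encodes an accessory subunit of the membrane arm. Its ratios were 0.32, 0.52 and 1.03 at 6 h and 0.82, 0.31 and 0.53 at 24 h, highest on replicates 3 and 4. Over both times it rose by 0.59 ± 0.12 (SE, n = 6), 1.5-fold (limma adjusted p = 0.0154). Over both times, Ndufaf6 and Ndufb8 were the 2 genes that passed whichever of the 6 arrays was left out. Their largest limma adjusted p was then 0.0323 in Ndufaf6 and 0.0499 in Ndufb8. At each single time, neither passed without replicate 2, 3, 4, 5 or 6.

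Ndufv1, the core subunit that binds NADH, was the fourth gene of complex I by p over both times; it lies outside the rule for named genes and is given to complete the count. Its ratios were 0.19, 0.37 and 0.70 at 6 h and 0.49, 0.06 and 0.48 at 24 h. Every array was above 0, with replicate 5 the lowest. Its mean was 0.38 ± 0.11 (SE, n = 6; limma adjusted p = 0.0365), and the adjusted p was 0.05 or more without replicate 2, 3, 4 or 6, reaching 0.113.

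Ndufaf1, another complex I assembly factor, had the evenest values of the genes that rose, 0.36, 0.37 and 0.29 at 6 h and 0.41, 0.11 and 0.29 at 24 h. Its mean was 0.30 ± 0.08 (SE, n = 6; limma adjusted p = 0.0289), and the call was lost without replicate 2, 3, 4 or 6 (largest limma adjusted p = 0.0996). Its promoter is printed because the gene rose and the sequence holds a core of the ets-type site bound by GABPA, a known regulator of respiratory genes, in capitals. The window is from RefSeq on GRCm38.p6, chr2:119662785-119663084, minus strand, and the match begins at position −18 from the start site.
Ndufaf1: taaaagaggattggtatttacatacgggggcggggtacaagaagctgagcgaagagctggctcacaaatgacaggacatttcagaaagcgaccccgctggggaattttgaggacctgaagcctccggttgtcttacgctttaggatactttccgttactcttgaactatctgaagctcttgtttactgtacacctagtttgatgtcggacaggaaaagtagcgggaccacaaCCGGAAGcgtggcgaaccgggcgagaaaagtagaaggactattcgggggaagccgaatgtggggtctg

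Ndufaf5, an enzyme that modifies a complex I subunit during assembly, moved the other way. Its ratios were 0.24, −1.06 and −0.36 at 6 h and −0.51, −0.92 and −2.06 at 24 h. Replicate 1 was above 0 and the other 5 arrays below, with replicate 6 far the lowest. Over both times it fell by 0.78 ± 0.24 on the log2 scale (SE, n = 6; limma adjusted p = 0.0484), and leaving out any array but replicate 1 lost the call (largest limma adjusted p = 0.142). The 3 assembly factors that passed in complex I thus had 2 directions, with Ndufaf6 and Ndufaf1 higher and Ndufaf5 lower, while Ndufaf3 (−0.15 ± 0.08) and Ndufaf4 (−0.01 ± 0.08) did not pass.

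The 5 core subunits measured, which belong to the electron-carrying arm of the complex, ranged over both times from −0.38 in Ndufv2 to 0.38 in Ndufv1, with a median of 0.044. Ndufv1 was the core subunit that passed. Of the 21 accessory subunits, 1 (Ndufb8) passed, 14 were above 0, and the median was 0.025. Just outside the threshold lay Ndufa13, with 0.24 ± 0.08 (limma adjusted p = 0.0564), and Ndufb11, with 0.25 ± 0.09 (limma adjusted p = 0.0639).

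Complex II, succinate dehydrogenase, gave 1 riser of 4 genes, the membrane anchor Sdhd. Its ratios were 0.61, 0.49 and 0.01 at 6 h and 0.40, 0.25 and 0.24 at 24 h. Replicate 3, where 5 of the other 7 risers peaked, was its lowest array. The mean was 0.33 ± 0.10 (SE, n = 6), 1.26-fold higher (limma adjusted p = 0.046), and leaving out any array but replicate 3 lost the call, with a largest limma adjusted p of 0.143.

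The other anchor, Sdhc, had a mean of 0.08 ± 0.07. The flavoprotein Sdha had −0.28 ± 0.14 and the iron-sulphur subunit Sdhb −0.12 ± 0.09. These 3 did not pass. Sdha had 0.28, 0.01 and −0.51 at 6 h and −0.15, −0.45 and −0.86 at 24 h, so its times overlapped.

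The Sdhd promoter is shown because it holds both a GABPA core and a core of the site for NRF-1, the nuclear respiratory factor (capitals; GRCm38.p6, chr9:50603800-50604099, minus strand, RefSeq). Counted from the start site, the NRF-1 core begins at position −79 and the GABPA core at −46.
Sdhd: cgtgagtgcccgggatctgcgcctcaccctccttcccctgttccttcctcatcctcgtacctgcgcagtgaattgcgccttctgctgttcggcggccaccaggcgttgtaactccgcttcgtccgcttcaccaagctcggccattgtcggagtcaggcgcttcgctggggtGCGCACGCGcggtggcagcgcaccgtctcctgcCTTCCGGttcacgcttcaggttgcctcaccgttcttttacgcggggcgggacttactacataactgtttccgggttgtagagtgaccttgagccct

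Complex III had 5 genes measured, of which Cyc1 rose. Cyc1 encodes cytochrome c1, the subunit that hands electrons to cytochrome c. Its ratios were 0.18, 0.24 and 1.02 at 6 h and 0.48, 0.24 and 0.46 at 24 h. All arrays were above 0 and replicate 3 stood highest. The mean was 0.44 ± 0.13 (SE, n = 6), 1.35-fold higher (limma adjusted p = 0.0436), and without any 1 array other than replicate 1 the call was lost. Without replicate 3 the mean was 0.30, and the largest limma adjusted p over the 6 omissions was 0.111.

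The other catalytic subunit measured, the Rieske iron-sulphur protein Uqcrfs1, had 0.30, −0.04 and 0.38 at 6 h and 0.04, −0.49 and −0.45 at 24 h. Its mean was −0.05 ± 0.11. The core proteins Uqcrc1 (0.06 ± 0.09) and Uqcrc2 (−0.17 ± 0.10) and the hinge protein Uqcrh (−0.0037 ± 0.09) did not pass.

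Complex IV, cytochrome c oxidase, gave 0 of 12 genes past the threshold in the limma fit at either time or over both, and 3 had an unadjusted p under 0.05 over both times. Over both times 35.5% of all features passed. Of the 12 genes, 10 had a mean above 0 over both times, beside 41 of all 66 genes and 8200 of 16678 features. The median of the 12 was 0.12. Cox5b, a nuclear-encoded subunit, had the smallest p, with 0.18, 0.18 and 0.51 at 6 h and 0.21, 0.10 and 0.23 at 24 h. All 6 arrays were above 0, with a mean of 0.23 ± 0.08 (SE, n = 6; limma adjusted p = 0.0727). Cox4i1, the widely expressed form of subunit 4, varied least in the complex, from 0.06 to 0.16 across the 6 arrays. Its mean was 0.11 at each time. Cox7a2 had a mean of 0.25 ± 0.09 (limma adjusted p = 0.0803), and the lowest mean of the complex was that of Cox7b, −0.23 ± 0.10. Cox7a2l, which joins complexes III and IV in supercomplexes, had −0.06 ± 0.10.

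Several subunits of complex IV exist as tissue forms, and both forms were measured in 2 cases. Of subunit 6A, Cox6a1, the widely expressed form, had 0.18, −0.03 and 0.31 at 6 h and −0.27, −0.03 and 0.16 at 24 h, with a mean of 0.05 ± 0.09. Cox6a2, the heart and skeletal muscle form, had −0.17, −0.01 and 0.03 at 6 h and 0.08, 0.16 and 0.24 at 24 h. Its mean was 0.06 ± 0.08 (SE, n = 6; limma adjusted p = 0.591), and its 24 h values all lay above its 6 h values, with a difference of 0.21 (limma adjusted p = 0.982).

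Of subunit 6B, the widely expressed Cox6b1 had 0.26, 0.10 and 0.23 at 6 h and 0.49, −0.18 and 0.15 at 24 h, with a mean of 0.17 ± 0.11. The testis form Cox6b2 had −0.79, 0.84 and 1.02 at 6 h and 0.65, 0.97 and 0.81 at 24 h. Replicate 1 stood opposite to the other 5 arrays. The mean of Cox6b2 was 0.58 ± 0.24, as large as that of Ndufb8, but its limma adjusted p was 0.0986.

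Complex V, the ATP synthase, gave 2 risers, Atp5k and Atp5d, and 1 gene that fell, Atp5pb, of 14. Atp5k, the small membrane subunit e, had 0.16, 0.40 and 0.74 at 6 h and 0.53, 0.16 and 0.29 at 24 h, all above 0 and highest on replicate 3. Its mean was 0.38 ± 0.11 (SE, n = 6), 1.30-fold higher (limma adjusted p = 0.034), and the call was lost without replicate 2, 3, 4 or 6 (largest limma adjusted p = 0.102). Atp5d, subunit delta of the rotating stalk, had 0.44, 0.20 and 0.52 at 6 h and 0.29, 0.03 and 0.15 at 24 h. Its mean was 0.27 ± 0.09 (SE, n = 6; limma adjusted p = 0.049), and leaving out any 1 of the 6 arrays lost the call (limma adjusted p between 0.068 and 0.145).

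Atp5pb, subunit b of the peripheral stalk that holds the catalytic head still, had 0.32, −0.84 and −1.19 at 6 h and −0.74, −1.06 and −0.90 at 24 h. Replicate 1 was above 0 and the other 5 arrays were below −0.7. Over both times it fell by 0.73 ± 0.20 on the log2 scale (SE, n = 6), 1.66-fold (limma adjusted p = 0.0303). The call held without replicate 1, with a limma adjusted p of 0.00399, and was lost without any other 1 array (largest limma adjusted p = 0.1).

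The remaining 11 genes of complex V did not pass. They include the catalytic head subunits Atp5a1 (−0.06 ± 0.07) and Atp5b (−0.05 ± 0.08), whose gene means were within 0.2 of 0 on every array. Each averages 2 array rows with means on opposite sides of 0. The row means over all arrays were −0.23 and 0.11 in Atp5a1 and −0.14 and 0.045 in Atp5b. The promoters of Atp5k, which rose, and of Atp5pb, which fell, are set side by side, but other genes had the opposite arrangement. The windows of Ndufb8, Ndufv1 and Atp5d, which rose, held neither an NRF-1 nor a GABPA core. That of Ndufaf5, which fell, held an NRF-1 core. The Atp5k window (GRCm38.p6, chr5:108434350-108434649, minus strand, RefSeq) holds an NRF-1 core on both strands beginning at position −50 and a GABPA core at position 13, in capitals. The Atp5pb window (chr3:105959214-105959513, minus strand) holds neither and so has no capitals.
Atp5k: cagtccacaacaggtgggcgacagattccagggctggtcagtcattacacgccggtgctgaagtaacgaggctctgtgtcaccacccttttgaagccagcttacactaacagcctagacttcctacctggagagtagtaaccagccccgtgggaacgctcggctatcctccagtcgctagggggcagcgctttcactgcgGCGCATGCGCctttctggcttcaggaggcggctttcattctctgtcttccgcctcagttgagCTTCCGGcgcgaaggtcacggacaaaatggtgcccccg
Atp5pb: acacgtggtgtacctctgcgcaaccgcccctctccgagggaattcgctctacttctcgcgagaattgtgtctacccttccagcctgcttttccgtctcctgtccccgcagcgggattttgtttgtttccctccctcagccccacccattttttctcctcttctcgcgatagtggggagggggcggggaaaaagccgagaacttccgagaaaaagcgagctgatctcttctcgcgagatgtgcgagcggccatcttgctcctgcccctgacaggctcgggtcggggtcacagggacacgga

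**Figure D3:**
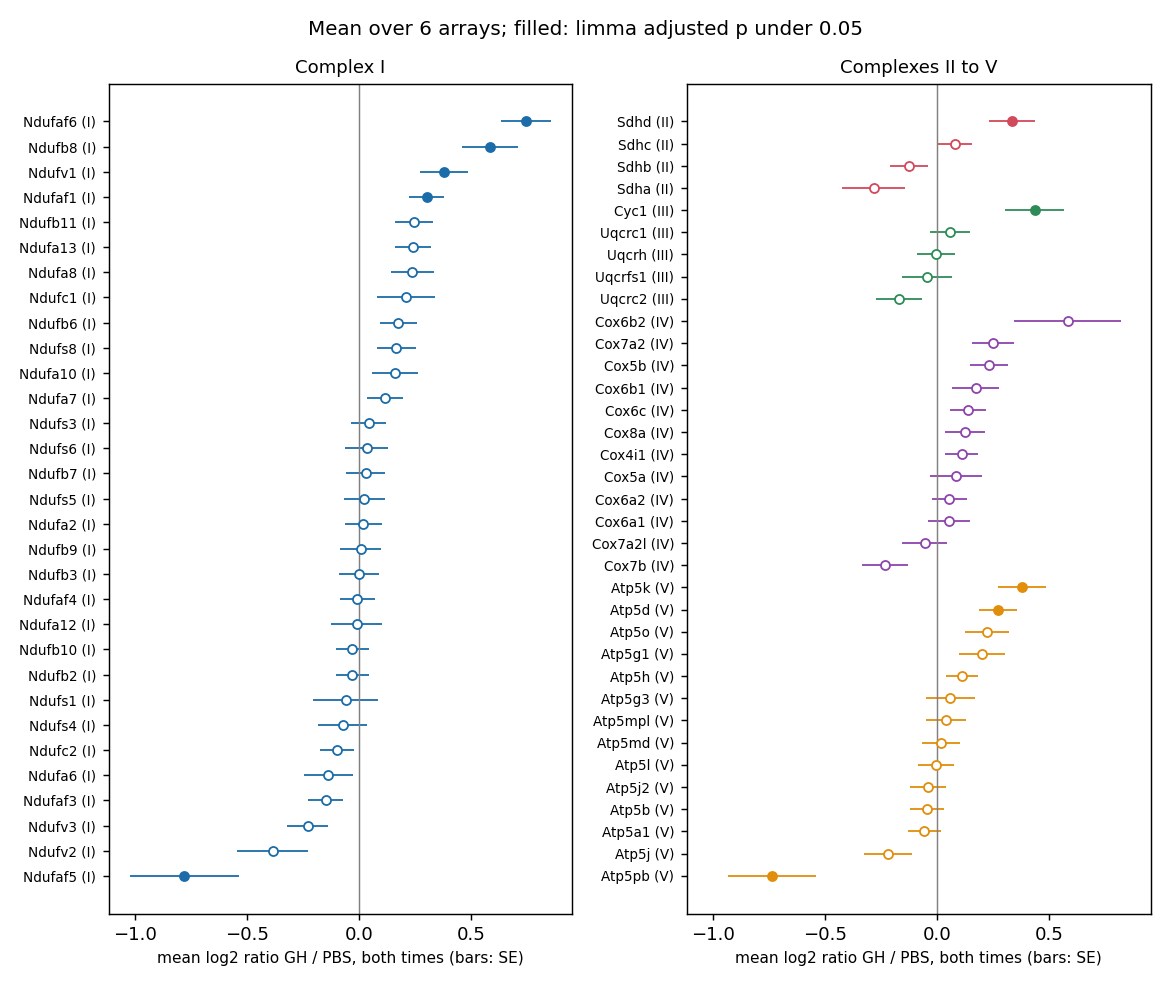
Mean log2 ratio of GH over PBS over both times (points) with its standard error (bars, limma, n = 6 arrays) for the 66 genes, coloured by complex; filled points passed an adjusted p of 0.05. In the 10 filled genes the means run from −0.78 in Ndufaf5 to 0.75 in Ndufaf6, and no gene of complex IV is filled.

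RefSeq held a promoter window, 250 bases before to 50 after the start site, for 54 of the 66 genes. The motifs searched on both strands were the NRF-1 core GCGCANGCG, the GABPA core CCGGAAG and the core of the YY1 site, AAGATGGCG. The NRF-1 core reads almost the same on both strands, so 1 site can match on each. It was found in 16 of 54 windows (29.6%), beside 7.03% of the windows of all 27025 genes. The GABPA core was also found in 16 windows (29.6%, beside 9.93%), and the YY1 core in 5 (9.26%, beside 1.64%). At least 1 of the 3 was found in 30 windows (55.6%, beside 16.5%). By complex, the NRF-1 core was in 7 of 27 windows of complex I, 2 of 3 of complex II, 1 of 3 of complex III, 1 of 9 of complex IV and 5 of 12 of complex V.

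Of the 8 genes that rose over both times, 6 had a window. At least 1 of the 3 cores was found in 3 of these 6, beside 55.6% of the 54 windows. The GABPA core was in all 3, and the NRF-1 core in 2 of the same 3, Atp5k and Sdhd. The windows of Ndufb8, Ndufv1 and Atp5d held none. Of the 2 that fell, Ndufaf5 held the NRF-1 core and Atp5pb none of the 3. These matches are a description of letters in the windows.

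The difference between times was below 0 in 49 of the 66 genes and above 0 in 17, but 0 passed the threshold in the limma fit, as among all features (0%). At an unadjusted p under 0.05 it held 1 of the 66 genes and 506 of 16678 features. The direction was below 0 in 24 of 31 genes of complex I, 3 of 4 of complex II, 4 of 5 of complex III, 6 of 12 of complex IV and 12 of 14 of complex V. The 24 h values lay wholly below the 6 h values in 6 of the 66 genes and wholly above them in 2. Of the 15131 features with values on all 6 arrays, 560 (3.7%) lay wholly below and 741 (4.9%) wholly above. The median difference was −0.091, beside 0.014 over all features.

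All 5 core subunits of complex I had a difference below 0. The gene with an unadjusted p under 0.05 was the core subunit Ndufs1, which is named after its values were seen. It had 0.30, 0.24 and 0.46 at 6 h and 0.12, −0.54 and −0.94 at 24 h, so that every 24 h array was below every 6 h array. Its difference was −0.79 ± 0.29 (SE), with an unadjusted limma p of 0.0312 and an adjusted p of 0.982. Replicates 5 and 6 carried most of this gap, and replicate 4 lay nearest to the 6 h arrays.

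The arrays did not all show the same pattern over the 66 genes. As a description, the profile of replicate 1 across these genes had Pearson correlations between −0.12 and 0.093 with the other 5 arrays, while all other pairs lay between 0.56 and 0.83. Replicate 1 stood apart over all features too, with correlations of 0.23 to 0.36 beside 0.56 to 0.82 in all other pairs. These points share the arrays and the common normalization. Replicate 1 also had the smallest spread of all arrays, with an SD of 0.47 over its rows beside 0.68 to 0.91 on the others. Without replicate 1, 9 of the 66 genes passed over both times, 8 of them among the 10, beside 40.9% of features in that fit. Without replicate 2, 4 or 6, 2 of the 66 passed, Ndufaf6 and Ndufb8 each time, and the share of features was also lower, at 14.4%, 21.9% and 20.8%. Without replicate 3 it was 3 genes (14.2% of features), and without replicate 5 it was 5 (33% of features). The scan file names of replicates 4 and 6 have another prefix than those of the other 4 arrays. Replicate 5 is the only 24 h array with the prefix of the 6 h arrays. A fit with the prefix as a covariate therefore takes its 24 h mean from replicate 5 alone, which limits what can pass at 24 h and over both times. Its 6 h mean rests on replicates 1 to 3, and 3.78% of features passed at 6 h, beside 3.62% without the covariate. With that prefix as a covariate, 0 of the 66 genes passed at either time or over both (6, 0 and 3 at an unadjusted p under 0.05), beside 6.31% of features over both times, and the 10 genes kept their sign.

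Among the 66 genes, 7 were measured by 2 array rows each, and in 3 of them the rows differed most. The rows of Atp5pb had means over all arrays of −0.43 and −1.04, both below 0. Taken alone, the second row passed over both times (limma adjusted p = 0.0466) and the first did not (limma adjusted p = 0.0814). The rows of Atp5g1, a gene for the proton-carrying ring subunit c, had means of 0.49 and −0.08, and replicate 4 of the first row reached 1.49. The rows of Atp5a1 had means of −0.23 and 0.11. In these last 2 genes the row means lay on opposite sides of 0, so the gene means, 0.20 in Atp5g1 and −0.06 in Atp5a1, describe neither row.

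**Figure D4:**
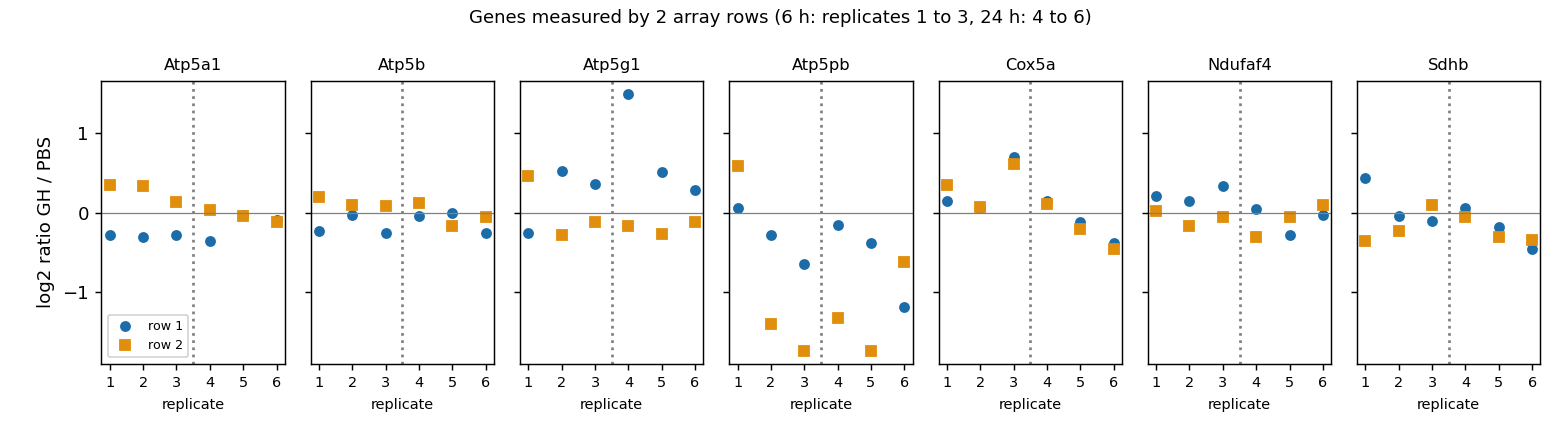
Log2 ratio of GH over PBS on each array (replicates 1 to 3 at 6 h, 4 to 6 at 24 h) for the 7 genes measured by 2 array rows, row 1 as circles and row 2 as squares. The rows of Cox5a nearly coincide, with means 0.014 apart, while those of Atp5pb are 0.61 and those of Atp5g1 0.57 apart.

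Markers of other tissues are given beside these genes. Of 18 skeletal muscle markers listed, 9 were measured, all with a mean above 0 at both times, and 3 rose over both times: myoglobin Mb by 0.82 ± 0.18, Actn2 by 0.72 ± 0.22 and Casq1 by 0.68 ± 0.20 (SE, n = 6; limma adjusted p = 0.0188, 0.0463 and 0.0431). Of all features, 35.5% passed over both times, 19.3% higher and 16.2% lower. The median of the 9 was 0.098, 0.59 and 1.22 at 6 h and 0.90, 0.098 and 0.24 at 24 h. It was highest on replicates 3 and 4, as were the ratios of Ndufb8, Cyc1, Atp5k and Ndufv1. In Cyc1 and Ndufv1, replicate 6 was almost as high as replicate 4. The ratios of the other risers, Sdhd, Ndufaf6, Ndufaf1 and Atp5d, did not follow the order of the muscle markers, with Sdhd lowest on replicate 3. The muscle form Cox6a2 had 0.03 and 0.08 on replicates 3 and 4. The part of muscle RNA in the rise of these genes was not tested.

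Of 10 neutrophil markers, 5 were measured, all with a mean below 0 at both times. Mpo (−0.63 ± 0.09) and Lcn2 (−1.18 ± 0.26) fell over both times (limma adjusted p = 0.00595 and 0.0177). Of all features, 16.2% fell and 19.3% rose over both times. The median of the 5 markers was 0.11, −0.49 and −1.32 at 6 h and −1.29, −0.49 and −0.70 at 24 h, above 0 on replicate 1 alone, as were Atp5pb and Ndufaf5. Of the 5 markers, Mpo (−0.44) and Ltf (−0.01) were below 0 on replicate 1. On that array 56 of the 66 genes were above 0. The part of marrow cells in the fall of these 2 genes was not tested. Of the 3 osteoblast and osteocyte markers measured of 10 listed, 0 passed (range over both times −0.26 to −0.02). Of 3 osteoclast markers measured, Calcr, the calcitonin receptor, rose over both times by 0.97 ± 0.18 (limma adjusted p = 0.0106). Mmp9 fell at 24 h by 0.44 on the log2 scale (limma adjusted p = 0.048) but did not pass over both times (−0.19 ± 0.09), and Acp5 did not pass (0.26 ± 0.10). Among 3 erythroid and 2 fat markers measured, 0 passed over both times.

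**Figure D5:**
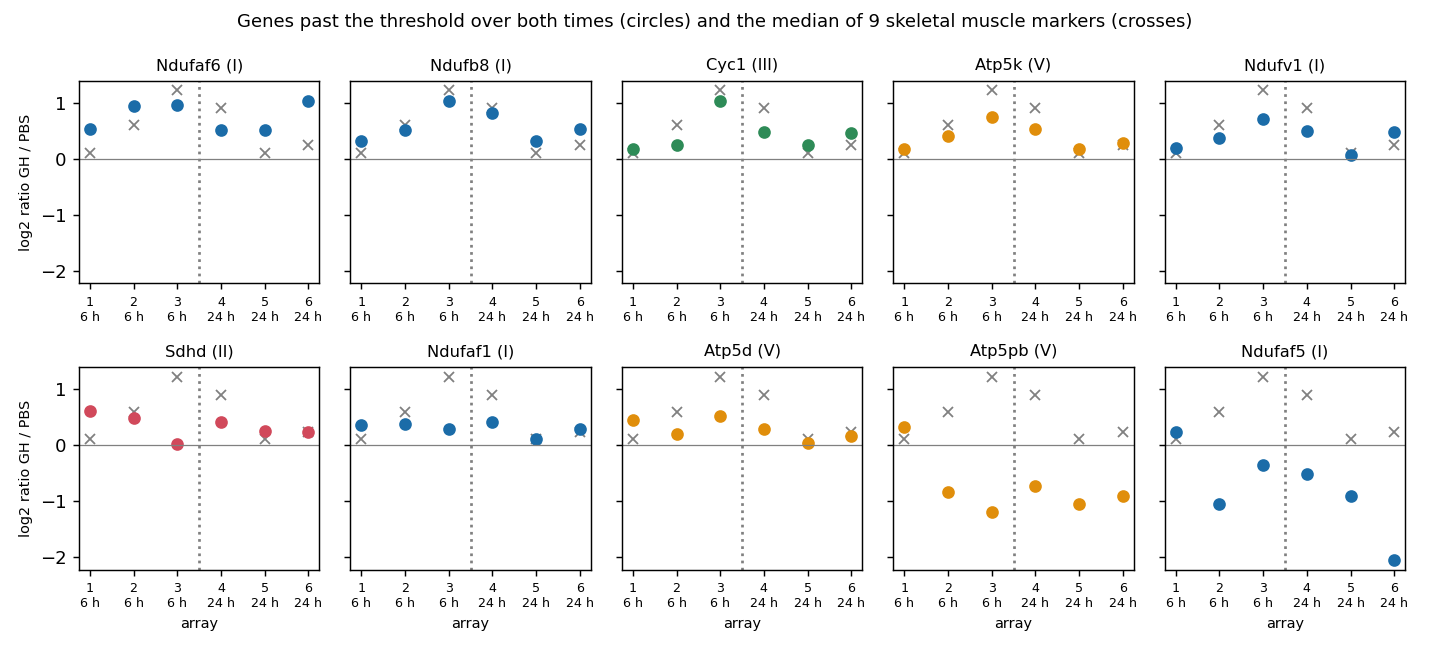
Log2 ratio of GH over PBS on each array for the 10 genes past the threshold over both times (circles, coloured by complex) and the median of the 9 skeletal muscle markers measured (grey crosses, the same in every panel), with replicate and time on the x axis. Ndufb8, Cyc1, Atp5k and Ndufv1 are highest on replicates 3 and 4 together with the crosses, while Sdhd is lowest on replicate 3 and Atp5pb and Ndufaf5 are below 0 on all arrays but replicate 1.

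Regulators that drive transcription or upkeep of the respiratory chain were also counted. Of 16 listed, 13 were measured, and over both times 2 rose and 5 fell, the same 5 having fallen at 24 h. Of all features, 19.3% rose and 16.2% fell over both times, and 8.62% fell at 24 h. The 5 regulators that fell lay between −1.18 and −0.81 over both times. Ppargc1b, a coactivator of mitochondrial gene expression, had −0.20, −1.32 and −0.97 at 6 h and −1.29, −1.43 and −1.89 at 24 h. It was below 0 on every array and fell by 1.18 ± 0.16 over both times (SE, n = 6; limma adjusted p = 0.00558). Tfam, which packages and transcribes mitochondrial DNA, fell by 1.09 ± 0.17 (SE, n = 6; limma adjusted p = 0.00697), and each of its 2 rows was below 0 on all 6 arrays. Ssbp1, the mitochondrial single-strand DNA-binding protein, fell by 0.81 ± 0.14 (SE, n = 6; limma adjusted p = 0.00946), but its rows disagreed, with 24 h means of −2.10 and −0.14.

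The next genes lie outside the naming rule and complete the counts. Gabpa, the DNA-binding partner in the GABP factor, fell by 1.17 ± 0.21 (SE, n = 6; limma adjusted p = 0.0102), with row means of −1.05 and −2.08 at 24 h. Esrrg, an oestrogen-related receptor, fell by 1.13 ± 0.20 (limma adjusted p = 0.0133, without replicate 1, where it had no value). Its relative Esrra rose by 0.56 ± 0.11 (limma adjusted p = 0.0119), and Gabpb1, which pairs with Gabpa, rose by 0.62 ± 0.13 (limma adjusted p = 0.016). The median of the 13 over both times was −0.098. The rows of Nrf1, which encodes the NRF-1 factor, had 24 h means of −1.35 and 0.54, so no direction is given for it.

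Other genes of mitochondrial energy metabolism were counted from lists. Over both times 35.5% of all features passed, 19.3% higher and 16.2% lower. Of 12 further assembly factors measured of 34 listed, Tmem126b rose by 0.71 and Bcs1l (−0.53), Cox10 (−0.38) and Tmem70 (−0.85) fell over both times. Bcs1l inserts the Rieske protein into complex III, Cox10 makes the haem of complex IV, and Tmem70 helps to assemble complex V. Of 13 genes of the citric acid cycle and pyruvate dehydrogenase, citrate synthase Cs rose by 0.36 and Ogdh by 0.32, and 0 fell. Of 12 carriers of electrons, ADP and phosphate, 0 rose and 2 fell, Slc25a5, an ADP/ATP exchanger, by 0.64 and Coq4, a factor of ubiquinone synthesis, by 0.29 on the log2 scale.

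Of 13 glycolytic genes, 2 rose and 0 fell, Ldha by 0.49 and Pfkl by 0.48, and 12 of the 13 had a mean above 0 over both times, with a median of 0.34. By array, the glycolytic median was 0.026, 0.38 and 0.72 at 6 h and 0.69, 0.029 and 0.16 at 24 h, highest on replicates 3 and 4, as was the skeletal muscle marker median, and the list includes Eno3 and Pfkm, forms abundant in muscle. The part of muscle RNA in the glycolytic ratios was not tested. Of 55 mitochondrial ribosomal protein genes, 4 rose and 9 fell over both times, beside 19.3% of all features that rose and 16.2% that fell. Their median was −0.12, beside 0.043 over the 66 oxidative phosphorylation genes. Median ratios over both times ran from −0.18 in the further assembly factors to 0.34 in glycolysis among the lists of these last 2 paragraphs. No test was made of any list against another.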

How the data were processed

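Bone RNA of 12 GH-treated and 12 PBS-treated mice, in pools of 2, was compared on 6 arrays, a GH against a PBS pool on each. The deposited values are log2 ratios per array row made by the authors; all of them equal log2 of a ratio with 2 decimals, and no label or header used here says how they were normalized. Single intensities were not used here. Gene names came from the platform's probe annotation: of 21446 rows, 11813 had 1 symbol, 559 several and 9074 none. Rows of 1 gene were averaged. Rows with several symbols were left out of the named genes. Features with values on at least 2 arrays per time were fitted with limma 3.58.1 (R 4.3.3), lmFit and eBayes, with 1 mean per time over all 6 arrays, and p-values were adjusted by Benjamini-Hochberg with a threshold of 0.05. The fit has 4 residual degrees of freedom, and the labels do not say which pools shared a litter or day, so p-values measure the spread between these pools. Values per array were given, in each complex, for up to 3 genes per direction with the smallest p over both times among those that passed, or else the gene with the smallest p; for complex IV isoform pairs; and for the 3 genes whose rows differed most. From the other lists, counts were given and up to 3 genes with the smallest p at 24 h were named, with others named to complete a count of those that passed. The genes and lists were chosen with earlier results of these data known. The fit was tested on simulated data. Alternatives were other scalings, filters, variance models, the scan file prefix as a covariate and each array left out.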

Additional observations from a re-analysis of the deposited data

Results flagged for a closer look

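Ndufb2, an accessory subunit of complex I, was the single gene of the 66 whose arrays lay wholly on opposite sides of 0 at the 2 times. Its log2 ratios were 0.15, 0.01 and 0.14 at 6 h and −0.09, −0.22 and −0.17 at 24 h. The difference, 24 h minus 6 h, was −0.26 ± 0.15 (SE), with an unadjusted limma p of 0.129 and an adjusted p of 0.982, so it did not pass the threshold.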

How the results depend on the processing

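With only ratios available, signal over background is unknown, and 3 arrays per time limit what can pass. With the scan prefix as a covariate the 24 h mean rests on replicate 5 alone. At 6 h, the count was 1 of 66 genes, beside 3.62% of features. It became 2 with equal median absolute deviations (10.7% of features) or quantile normalization (11.8%), and 9 with array weights (37.1%). It became 0 with subunits only (3.62%), each row alone (3.38%) or robust empirical Bayes (2.91%). It was also 0 with each time alone (0%) or the scan prefix as a covariate (3.78%). With 1 array left out it was 3 without replicate 1 (9.09%) and 0 without any other. The share was then 0% without replicate 2, 3 or 4, 3.88% without replicate 5 and 0.548% without replicate 6. At 24 h, the count of 1 became 2 with array weights or with each time alone and 0 with subunits only or the scan prefix, and ran from 0 to 3 with 1 array left out. Over both times, the count of 10 became 6 with equal median absolute deviations and 0 with the scan prefix, and ran from 2 to 9 with 1 array left out. In the difference between times it was 0 under every alternative that could be run. Centring, complete features, missing zeros and the remaining settings kept the counts within 1.5 times. At 24 h, 20.6% of features passed in the main fit, 21.4% with array weights and 13.7% with each time alone. With 1 array left out that share ran from 0% to 25.4%. Over both times it was 35.5% in the main fit and 33.3% with equal median absolute deviations. It ran from 14.2% to 40.9% over both times with 1 array left out. The complex II median at 24 h was −0.19 with each row alone, and the complex IV median at 6 h ran from 0.12 to 0.17 with 1 array left out; the other 128 of 130 medians moved by less than the spread between arrays. No named gene that passed changed sign. The causes were not tested. No paired analysis was possible because replicate numbers 1 to 6 are not shared between times.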
